A study of Mus musculus with 6 samples.

Results

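The Zfp36 and BTG/Tob mRNA decay regulators are 8 genes, found by their symbols among the 55573 genes of a deposited mouse RNA-seq count table. They are Zfp36, Zfp36l1 and Zfp36l2, together with Btg1, Btg2, Btg3, Tob1 and Tob2. All 8 were among the 16493 genes that passed the filter on low counts. The study sequenced 3 Abcc4-/- and 3 wild-type (WT) samples that the labels call megakaryocytes, large marrow cells that release platelets. Abcc4 encodes a membrane pump for cyclic nucleotides and nucleotide-type drugs. The series text speaks of 3 mice a genotype, and the labels give no age, sex or treatment. The labels state neither which segment of Abcc4 was deleted nor how the cells were selected, although the sample titles contain CD41, the platelet integrin encoded by Itga2b.

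Zfp36 proteins, of which Zfp36 itself is also known as tristetraprolin, carry a pair of CCCH zinc fingers that bind AU-rich elements in 3′ untranslated regions (UTRs). They bring the CCR4-NOT deadenylase to the bound mRNA, whose poly(A) tail is then removed. BTG and Tob proteins share an N-terminal domain that contacts the deadenylase subunits of the same complex, and are known as restraints on cell proliferation. Several of these genes are themselves transiently induced by growth factors, stress or inflammatory signals.

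The libraries held 67009925 to 99294493 counts in Abcc4-/- and 50440239 to 55123512 in WT. Abcc4 itself averaged 61.0 ± 1.13 CPM in Abcc4-/- and 73.9 ± 1.96 CPM in WT (SD, n = 3 each; edgeR, log2 fold change -0.28, adjusted p = 0.0026), where CPM are counts scaled to each library's TMM size. Counts over the whole gene do not check the genotype. The 14 megakaryocyte marker genes were all detected, and together took 0.0199% to 0.0240% of the counts in Abcc4-/- libraries and 0.0290% to 0.0352% in WT libraries, with 1 called higher and 9 lower. The 12 neutrophil marker genes took 4.06% to 4.25% in Abcc4-/- and 2.33% to 3.01% in WT, with 8 called higher and 1 lower, and so took more of every library than the megakaryocyte markers. The 10 B cell markers took 0.0984% to 0.107% in Abcc4-/- and 0.0503% to 0.0730% in WT, with 7 called higher. The 8 mast cell, basophil and eosinophil markers took 0.207% to 0.260% in Abcc4-/- and 0.277% to 0.313% in WT, with 3 called lower. The summed shares of the other lists overlapped between the genotypes, with 3 of 11 monocyte and macrophage markers called lower, and 8 of 10 T and NK cell and 2 of 8 erythroid markers called higher. Among all genes tested, 8.61% were called higher and 8.68% lower (edgeR, adjusted p below 0.05).

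The AU-rich element is shown first because the Zfp36 genes, which encode the proteins that bind it, carry it themselves. The consensus nonamer TTATTTATT was found once in the longest annotated 3′ UTR of each of the 3 Zfp36 genes and in none of those of the 5 BTG/Tob genes. It was present in 7.87% of the 13256 tested genes with an annotated 3′ UTR. The sites, with the nonamer in capitals (GENCODE M21 transcripts, GRCm38, sense strand, 5′ to 3′), were:
Zfp36: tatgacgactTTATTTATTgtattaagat
Zfp36l1: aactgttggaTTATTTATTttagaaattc
Zfp36l2: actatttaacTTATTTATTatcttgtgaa

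The sites began at position 589 of a 774-base 3′ UTR in Zfp36, 1404 of 1835 in Zfp36l1 and 821 of 1822 in Zfp36l2. The shorter pentamer ATTTA occurred in all 8 genes, where 68.9% of the annotated 3′ UTRs held at least 1. Its density lay between 1.63 per kb in Tob2 and 4.90 per kb in Zfp36l1, against a median of 1.26 per kb over all tested genes with a 3′ UTR. Btg1, with a 3′ UTR of 4166 bases, held 11 copies. The heptamer TATTTAT, which every nonamer contains, was found in 5 genes, the 3 Zfp36 genes and Btg2 and Tob2, against 29.3% of all 3′ UTRs. The median 3′ UTR of all these tested genes had 1137 bases, and motif presence was not compared at equal length.

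Promoter windows from RefSeq (GRCm38.p6, 250 bases before to 50 after the annotated start) were held for 7 of the 8 genes. Those of Btg2 and Zfp36, which had the 2 largest fold changes, are printed beside that of Tob2, which had the smallest. They are examples, and windows chosen in this way cannot relate motifs to the falls. Capitals mark matches on either strand to the CRE (TGACGTCA), the EGR motif (GCGNGGGCG) and the CArG box. Coordinates were chr1:134079106-134079405 for Btg2, chr7:28379179-28379478 for Zfp36 and chr15:81858277-81858576 for Tob2, all on the minus strand, and the sequences read 5′ to 3′ along the gene:
Btg2: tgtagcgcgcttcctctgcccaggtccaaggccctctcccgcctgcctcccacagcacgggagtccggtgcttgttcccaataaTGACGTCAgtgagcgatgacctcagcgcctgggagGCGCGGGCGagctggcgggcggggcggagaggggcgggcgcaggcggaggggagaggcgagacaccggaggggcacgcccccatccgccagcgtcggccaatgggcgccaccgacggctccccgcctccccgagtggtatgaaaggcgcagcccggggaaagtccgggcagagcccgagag
Zfp36: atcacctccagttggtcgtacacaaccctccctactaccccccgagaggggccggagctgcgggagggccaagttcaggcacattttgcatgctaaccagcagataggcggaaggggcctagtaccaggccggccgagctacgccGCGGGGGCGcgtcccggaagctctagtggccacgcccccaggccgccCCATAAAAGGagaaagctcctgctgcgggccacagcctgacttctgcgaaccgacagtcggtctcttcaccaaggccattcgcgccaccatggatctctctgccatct
Tob2: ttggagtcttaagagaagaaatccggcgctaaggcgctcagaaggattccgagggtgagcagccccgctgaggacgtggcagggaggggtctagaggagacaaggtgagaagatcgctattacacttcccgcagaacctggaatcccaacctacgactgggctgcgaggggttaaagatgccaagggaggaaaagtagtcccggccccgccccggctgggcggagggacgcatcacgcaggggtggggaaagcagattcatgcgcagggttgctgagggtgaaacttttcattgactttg

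The Btg2 window held a full CRE starting 166 bases before the annotated start, a motif present in 1.79% of 32851 promoter windows. It also held an EGR match 131 bases before the start, and the Zfp36 window held another at 105 bases (5.55% of all windows). A CArG box was found in Zfp36, starting 58 bases before the start (1.63% of all windows). None of these 3 motifs was matched in the Tob2 window, nor did it hold the AP-1 motif, written TGANTCA, an NF-kB motif, or the TATA box, searched as the letters TATAAA. In the other windows, TATA boxes were matched in Btg1, Tob1 and Zfp36l1 (13.6% of all windows), an AP-1 motif in Zfp36l1 (7.81%) and an NF-kB motif in 1 of the 2 windows of Btg3 (8.46%). A shortened CRE, TGACG, was matched in Btg1, Btg2 and Tob1 (20.8% of all windows). Btg1, which fell 1.66-fold, held no full CRE, EGR or CArG match. The Zfp36 and Tob2 windows lie wholly inside the GENCODE genes, which on the minus strand begin at 28380253 and 81858796. Sequence before those starts was not searched. A match is a run of letters and does not show that a factor was bound.

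All 8 genes fell in Abcc4-/- samples, where 8.68% of all genes tested were called lower and 8.61% higher by the edgeR quasi-likelihood test at an adjusted p below 0.05. The falls ran between 2.17-fold for Btg2 and 1.19-fold for Tob2, and the median log2 fold change of the 8 genes was -0.62, against 0.00 over all genes tested. The Abcc4-/- and WT libraries did not overlap for any of the 8, in CPM. Over all genes tested, 36.8% had groups that did not overlap, and 18.3% had every Abcc4-/- library below every WT library. The counts come from whole samples, so fewer cells of a type and less RNA per cell cannot be told apart. The marker sums of other cells given above moved with genotype in the same libraries, and their part in these falls was not tested.

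Zfp36 was the most abundant of the 8 and fell 1.98-fold. It had 1021, 958.2 and 1095 CPM in the 3 Abcc4-/- libraries, against 2092, 1983 and 2025 CPM in the WT libraries. The lowest WT library was thus well above the highest Abcc4-/- library. The mean was 1025 ± 68.5 CPM in Abcc4-/- and 2033 ± 55.0 CPM in WT (SD, n = 3 each), with a log2 fold change of -0.99 ± 0.07 (SE; edgeR, adjusted p = 4.50e-06). Only 2.20% of all genes tested had a lower log2 fold change. Zfp36 (ENSMUSG00000044786.6) spans chr7:28376784-28380253 of GRCm38, on the minus strand.

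Zfp36l1 and Zfp36l2 encode the paralogues, which are known from mouse knockouts for roles in lymphocyte development and, for Zfp36l2, in blood stem cells. Zfp36l1 (ENSMUSG00000021127.7, chromosome 12, 80107754 to 80113013, minus strand) had 77.4, 68.1 and 82.0 CPM in Abcc4-/- libraries, against 109.9, 116.9 and 132.6 CPM in WT libraries. It fell 1.58-fold (log2 fold change -0.66, SE 0.09; edgeR, adjusted p = 0.000935), with WT replicate 3 the highest library. Zfp36l2 (ENSMUSG00000045817.8, chromosome 17, 84183931 to 84187947, minus strand) had 568.5, 618.3 and 597.8 CPM in Abcc4-/- libraries, against 838.1, 853.0 and 838.2 CPM in WT libraries. Its SD was 25.1 CPM in Abcc4-/- and 8.55 CPM in WT (n = 3 each), and it fell 1.42-fold (log2 fold change -0.50, SE 0.06; edgeR, adjusted p = 0.000133).

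Btg2, an antiproliferative gene known to be induced by p53 and by growth factors, had the largest fall of the 8. It had 299.2, 258.3 and 286.9 CPM in Abcc4-/- libraries, against 630.4, 587.6 and 615.0 CPM in WT libraries. The gap between the groups was larger than the whole range of either group. The mean was 281 ± 21.0 CPM in Abcc4-/- and 611 ± 21.7 CPM in WT (SD, n = 3 each), a log2 fold change of -1.12 (SE 0.06; edgeR, adjusted p = 2.33e-06). Btg2 (ENSMUSG00000020423.6) lies on chromosome 1, 134075170 to 134079120 on the minus strand.

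Btg1, the closest relative of Btg2 and known for keeping lymphocytes quiescent, fell 1.66-fold. It had 565.6, 522.4 and 552.0 CPM in Abcc4-/- libraries, against 905.2, 880.1 and 938.6 CPM in WT libraries (log2 fold change -0.73, SE 0.06; edgeR, adjusted p = 1.33e-05). The spread within a genotype was small beside this difference, with an SD of 22.1 CPM in Abcc4-/- and 29.3 CPM in WT (n = 3 each). Btg1 (ENSMUSG00000036478.8) lies on chromosome 10, 96617006 to 96622809 on the plus strand.

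Btg3, a more distant antiproliferative family member, was the least abundant of the 8. It had 8.19, 7.04 and 7.18 CPM in Abcc4-/- libraries, against 9.95, 10.1 and 13.3 CPM in WT libraries. The groups did not overlap, but WT replicate 3 stood above the other WT libraries. It fell 1.49-fold (log2 fold change -0.57, SE 0.12; edgeR, adjusted p = 0.00769), and the log2 fold change was -0.42 without WT replicate 3. Btg3 (ENSMUSG00000022863.15, chromosome 16, 78332637 to 78377192, minus strand) was the 1 gene of the 8 whose estimated counts were not all whole numbers, so reads shared with other genes were split and its values are less certain.

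Tob1 and Tob2, the larger Tob proteins that also bind cytoplasmic poly(A)-binding protein, had the smallest falls. Tob1 (ENSMUSG00000037573.5, chromosome 11, 94211454 to 94215495, plus strand) had 33.5, 33.2 and 33.1 CPM in Abcc4-/- libraries, against 41.8, 36.9 and 40.5 CPM in WT libraries (log2 fold change -0.26, SE 0.06; edgeR, adjusted p = 0.00997). Tob2 (ENSMUSG00000048546.8, chromosome 15, 81848272 to 81858796, minus strand) had 82.4, 85.1 and 86.6 CPM in Abcc4-/- libraries, against 99.4, 97.4 and 105.7 CPM in WT libraries (log2 fold change -0.25, SE 0.05; edgeR, adjusted p = 0.00618). Both fell 1.2-fold, and the gap between the groups was narrow, with WT replicate 2 nearest to the Abcc4-/- libraries for each. About 15.4% of all genes tested had a lower log2 fold change than Tob1, and 15.7% a lower one than Tob2.

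**Figure D1:**
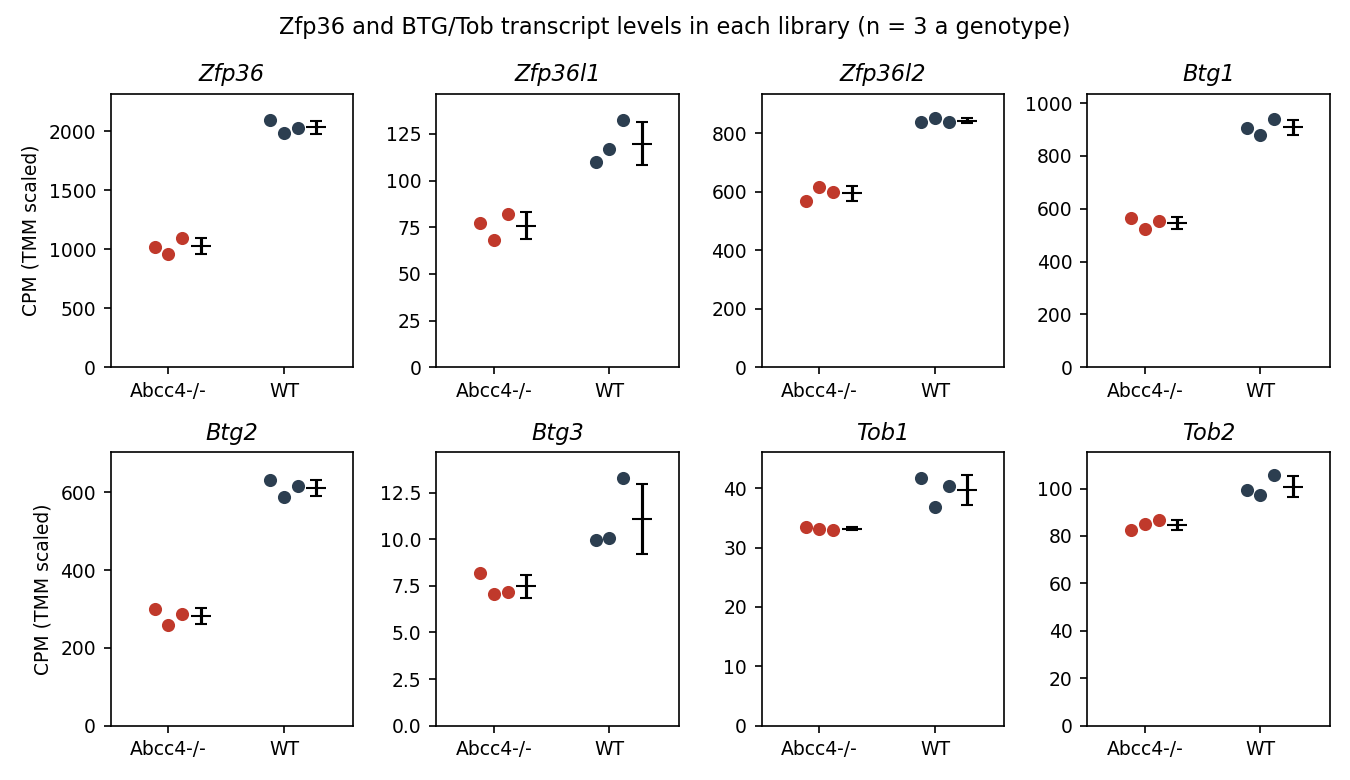
TMM-scaled CPM of each gene in every library, with the 3 Abcc4-/- libraries left (red) and the 3 WT libraries right (dark blue), and the mean ± SD as black bars. Each vertical axis starts at 0. The groups do not overlap in any of the 8 panels, and relative to each panel's own axis the gap is widest for Zfp36 and Btg2 and narrowest for Tob1.

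The calls did not rest on 1 library or on the scaling. Each of the 8 genes was called lower in all 17 alternative fits, which changed the normalization, the test, the filter, the unit or the depth, added a replicate block, or left out 1 library at a time. The highest adjusted p over these fits was 0.0440 for Tob1 (without WT replicate 1), 0.0373 for Btg3 and 0.0306 for Tob2 (each without Abcc4-/- replicate 2). For the other 5 genes it was at most 0.00952. When counts were thinned to the smallest library total, which removes the 1.55-fold greater depth of Abcc4-/- libraries, all 8 were still called.

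**Figure D2:**
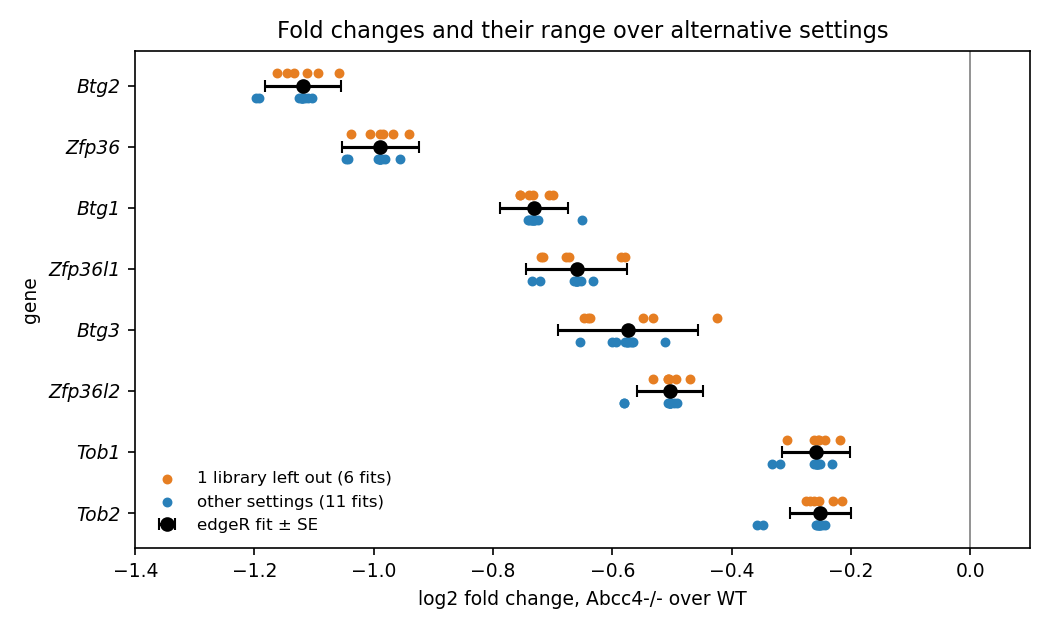
Log2 fold change of Abcc4-/- over WT for each gene (horizontal axis), as the edgeR estimate ± SE (black), the 6 fits with 1 library left out (orange) and 11 other settings (blue). All points lie below 0, between -1.20 for Btg2 and -0.21 for Tob2.

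Levels were compared between genes in the deposited TPM, which are scaled by transcript length. In Abcc4-/- samples the order of mean TPM was Zfp36 (542 ± 47.2), Zfp36l2 (230.3 ± 13.8), Btg1 (223 ± 4.17), Btg2 (142 ± 10.3), Zfp36l1 (35.02 ± 3.75), Tob2 (28.2 ± 1.47), Tob1 (20.5 ± 0.414) and Btg3 (7.76 ± 0.486; SD, n = 3). In WT samples it was Zfp36 (1117 ± 38.5), Btg1 (373.5 ± 24.1), Zfp36l2 (344 ± 7.82), Btg2 (326.5 ± 16.4), Zfp36l1 (58.4 ± 7.23), Tob2 (36.3 ± 3.81), Tob1 (25.8 ± 2.01) and Btg3 (12.4 ± 2.61; SD, n = 3). The last 4 places of the order were the same in both genotypes. Among the first 4, the TPM ranges of Zfp36l2 and Btg1 overlapped in both genotypes, and those of Zfp36l2 and Btg2 overlapped in WT only, so these neighbours were not separated by the spread over samples. Zfp36 ranked 183rd of 55573 genes by mean TPM over the 6 libraries, and Btg1 446th.

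The estimated falls were unequal, and the makeup of each family differed between the libraries of the 2 genotypes. Zfp36 made up 67.7%, 65.2% and 68.3% of the summed TPM of the 3 Zfp36 genes in Abcc4-/- libraries, against 74.4%, 73.0% and 73.2% in WT libraries. The remainder was mostly Zfp36l2, with 27.2% to 30.7% in Abcc4-/- libraries and 22.2% to 23.3% in WT libraries. The ratio of Zfp36 to Zfp36l2 TPM was 2.44, 2.12 and 2.51 in Abcc4-/- and 3.36, 3.14 and 3.24 in WT, with no overlap.

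Among the BTG/Tob genes, Btg2 made up 34.7%, 32.2% and 34.3% of their summed TPM in Abcc4-/- libraries, against 42.6%, 42.5% and 41.4% in WT libraries. The ratio of Btg2 to Btg1 TPM was 0.664, 0.595 and 0.655 in Abcc4-/- and 0.886, 0.883 and 0.855 in WT. The ratio of Tob2 to Tob1 TPM ranged between 1.33 and 1.42 in Abcc4-/- and between 1.29 and 1.5 in WT, which overlap. Over all 28 pairs of the 8 genes, the log2 ratio of CPM within a library did not overlap between the genotypes for 21 pairs. Pairs that share a gene are not independent, and the share over all pairs of tested genes was not computed. Without overlap, the exact permutation test of a pair always gives p = 0.1, two-sided, the smallest that 3 against 3 allows. Adjusted over the 28 pairs it was 0.133, so no difference between genes could pass this test, and none did.

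**Figure D3:**
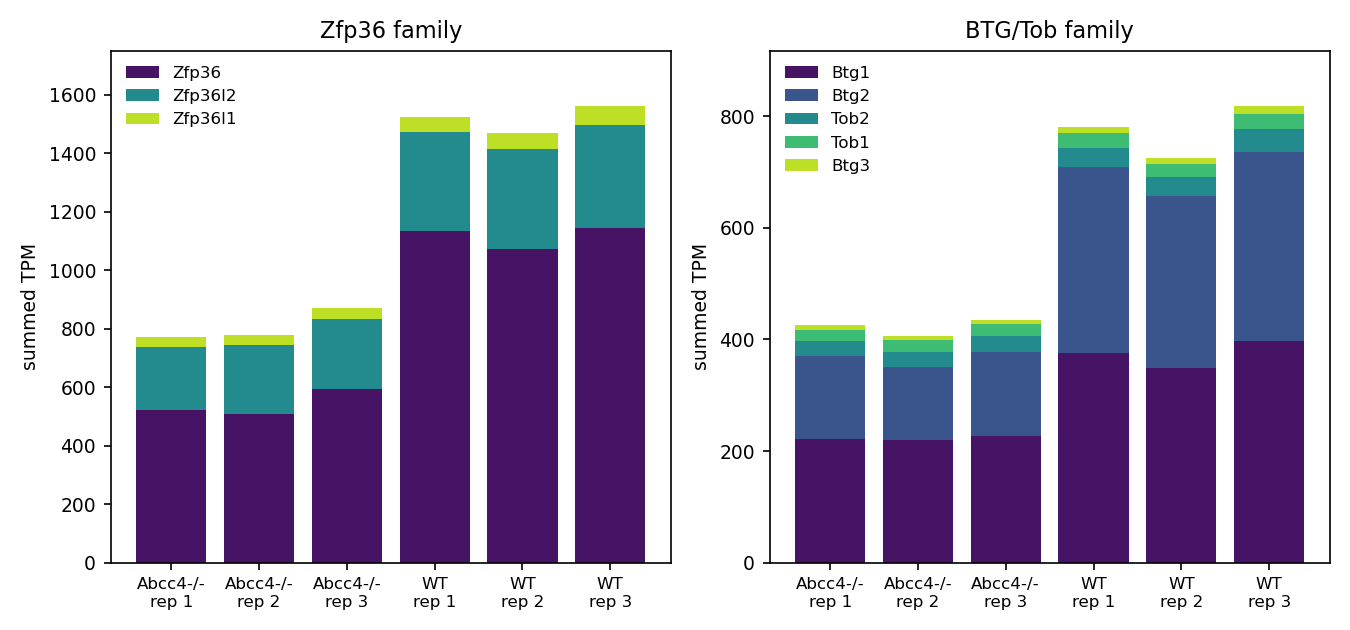
Summed TPM (vertical axes, from 0) of the 3 Zfp36 genes (left) and of the 5 BTG/Tob genes (right) in each library, Abcc4-/- libraries left of WT, stacked by gene. The sums are 772 to 872 TPM in Abcc4-/- and 1470 to 1563 TPM in WT for the Zfp36 genes, and 406 to 435 TPM in Abcc4-/- and 724.5 to 819 TPM in WT for the BTG/Tob genes.

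The genes whose libraries followed each of the 8 most closely were found by the root-mean-square difference of centred log2 CPM over the 6 libraries, among 9445 genes whose mean log2 CPM reached 3 or more. Nearest to Zfp36 were the transcription factor genes Junb (0.05) and Klf2 (0.08) and the small GTPase gene Rhob (0.08). Klf2 and Rhob were also nearest to Btg2 (0.07 each), after the histone gene Hist3h2a (0.06). Btg1 was followed most closely by Zfand5, Id1 and Bambi, and Zfp36l1 by Slc20a1, Rbm15 and Zfand5. The nearest genes of Zfp36l2 were Tbc1d9, Slc22a3 and Zfp316, and those of Btg3 were Sde2, Ifrd1 and Oser1. For Tob1 they were Itga8, Stom and Elmo2, and for Tob2 Tiam1, Wasl and St7l. Between members, the closest pairs by this measure were Tob1 and Tob2 (0.05) and Zfp36 and Btg2 (0.08). This likeness covers 2 groups of 3 libraries, so it mostly measures a like fold change between the genotypes.

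Genes for deadenylation were examined next, among them those of CCR4-NOT, the complex that Zfp36, BTG and Tob proteins contact. Of 18 genes for CCR4-NOT, PAN2-PAN3, PARN, Noct and poly(A)-binding proteins, 0 rose and 2 fell, neither of them for CCR4-NOT. Their median log2 fold change, over all 18, was -0.01. In this list 11.1% were called in either direction, against 17.3% of all genes, and 7 of the 18 did not overlap between the genotypes, against 36.8% of all genes. The genes that fell were Pabpc1, which encodes the main cytoplasmic poly(A)-binding protein (1345 ± 21.3 CPM in Abcc4-/- and 1539 ± 42.4 CPM in WT; SD, n = 3 each; edgeR, adjusted p = 0.0325), and Pan3, a subunit of the PAN2-PAN3 deadenylase (adjusted p = 0.0350). The call of Pabpc1 was lost when any library other than WT replicate 3 was left out (adjusted p = 0.0600 to 0.112), and that of Pan3 without any Abcc4-/- replicate or WT replicate 3 (0.0636 to 0.121). The deadenylase subunit genes Cnot7 and Cnot8, which BTG and Tob proteins bind, had log2 fold changes of 0.05 and 0.13 (edgeR, adjusted p = 0.566 and 0.101) and were named after their values were seen.

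For the later steps of mRNA decay, decapping and exosome genes were counted in the same way. Of 20 genes for decapping and 5′ to 3′ decay, 1 was called, Dcp2, the decapping enzyme gene (96.5 ± 5.56 CPM in Abcc4-/- and 83.8 ± 5.69 CPM in WT; SD, n = 3 each; edgeR, log2 fold change 0.20, adjusted p = 0.0433). Groups did not overlap for 8 of the 20. Of all genes tested, 17.3% were called and 36.8% did not overlap. The direction of Dcp2 depended on the scale, with a log2 difference of -0.15 on log2(TPM + 1), and it lost its call without Abcc4-/- replicate 2 or 3 or WT replicate 1 or 2 (adjusted p = 0.109 to 0.147). Of 16 exosome and Ski complex genes tested out of 17, 0 passed in edgeR, DESeq2 or limma-voom, and 3 had an unadjusted edgeR p below 0.05. The smallest p was that of Exosc9, an exosome core subunit gene (log2 fold change 0.16, adjusted p = 0.0707).

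Of 19 other regulators of mRNA stability tested out of 20, 2 fell and 3 rose, or 26.3% called, against 17.3% of all genes. Zc3h12a encodes Regnase-1, a nuclease that cleaves inflammatory mRNAs, and fell 2.46-fold (23.1 ± 1.32 CPM in Abcc4-/- and 56.9 ± 10.8 CPM in WT; SD, n = 3 each; edgeR, adjusted p = 0.00128). Its relative Zc3h12c fell 1.64-fold (adjusted p = 0.00266), and both kept their calls in all 17 alternative fits. Elavl1 encodes HuR, which stabilizes AU-rich mRNAs, and rose 1.16-fold (90.6 ± 2.92 CPM in Abcc4-/- and 77.8 ± 2.68 CPM in WT; edgeR, log2 fold change 0.22, adjusted p = 0.0118), with an adjusted p of 0.0501 without WT replicate 1. Arid5a, which stabilizes Il6 mRNA, and Celf1, which binds GU-rich elements, had log2 fold changes of 0.21 and 0.19 (adjusted p = 0.0259 and 0.0338). Arid5a lost its call without Abcc4-/- replicate 2 or 3 or WT replicate 1 (0.0809 to 0.114), Celf1 also without WT replicate 2 (0.0977 to 0.120), and both on the TPM scales. The stress kinases p38 and MK2 phosphorylate Zfp36, which 14-3-3 proteins then hold in an inactive state. Of 18 genes for p38, its kinases, MK2, 14-3-3 and PP2A, 1 rose and 1 fell, or 11.1% called, against 17.3% of all genes. Mapk13, p38 delta, had 53.1 ± 3.59 CPM in Abcc4-/- and 30.6 ± 5.81 CPM in WT (SD, n = 3 each; edgeR, log2 fold change 0.80, adjusted p = 0.0128; 0.0579 without Abcc4-/- replicate 3 and 0.0570 with no filter on low counts), and the kinase gene Map2k6 fell 1.21-fold (adjusted p = 0.0311). Map2k6 lost its call without Abcc4-/- replicate 2 or 3 or WT replicate 1 or 3 (0.0737 to 0.133).

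Zfp36 proteins destabilize the mRNAs they bind, and most transcripts described as their targets were lower in Abcc4-/- samples. Of 24 such genes, 20 were tested, 17 fell and 0 rose, with a median log2 fold change of -1.46, where 8.68% of all genes were called lower. Among the 17, Il10 was barely detected, with a mean of 0.05 CPM in Abcc4-/- and 0.25 CPM in WT libraries. It passed the filter on low counts only through the WT libraries, so its fall is no support. Il10 was named after its value was seen. Plk3, a stress kinase gene, fell 4.25-fold (24.9 ± 2.85 CPM in Abcc4-/- and 106 ± 11.7 CPM in WT; SD, n = 3 each; edgeR, adjusted p = 1.33e-05). The cell cycle inhibitor gene Cdkn1a fell 3.45-fold (adjusted p = 3.09e-05) and the survival kinase gene Pim1 2.49-fold (adjusted p = 5.53e-06). Tnf, the target through which mouse Zfp36 is best known, fell less (20.2 ± 1.04 CPM in Abcc4-/- and 26.4 ± 2.18 CPM in WT; edgeR, log2 fold change -0.39, adjusted p = 0.00353) and was named after its value was seen. The nonamer was present in the 3′ UTRs of 10 of the 20 genes, of which 9 fell, and 8 of the 10 without it fell.

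Many of these targets are also inducible genes, and 3 of them (Fos, Dusp1 and Ier3) belong to a list of 17 immediate early genes. All 17 fell, where 8.68% of all genes tested were called lower by edgeR. The list was chosen with earlier results of these data known. That list took 0.307% to 0.372% of the counts in Abcc4-/- libraries and 1.02% to 1.09% in WT libraries, and its median log2 fold change was -1.73. The smallest fall in the list was that of Junb (457 ± 35.5 CPM in Abcc4-/- and 935 ± 19.8 CPM in WT; SD, n = 3 each; log2 fold change -1.03). The fall of Btg2 lay within the range of this list, and the estimated falls of the other 7 decay regulators were smaller than that of any gene in it. Zfp36 (log2 fold change -0.99, SE 0.07) and Junb (SE 0.06) were not separated beyond their SE. How these genes are related in the same cells was not measured.

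**Figure D4:**
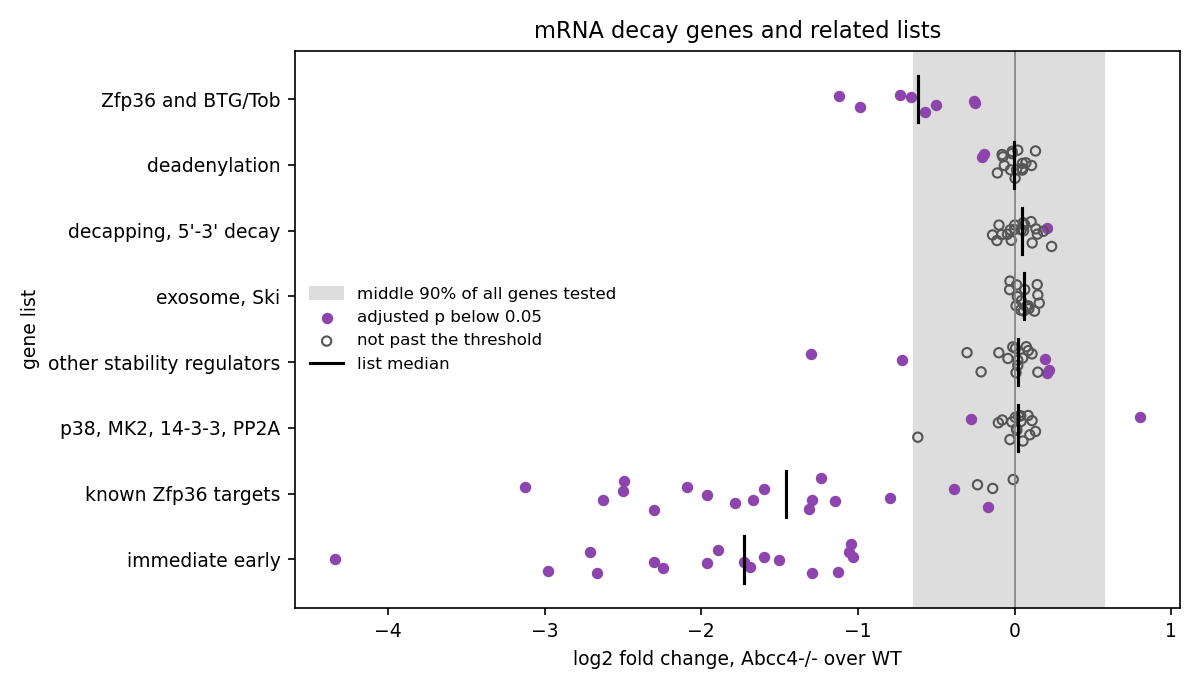
Log2 fold change of Abcc4-/- over WT (horizontal axis) for every tested gene of 8 lists (rows; points are spread vertically for legibility), filled where the edgeR adjusted p is below 0.05, with list medians as black lines. The grey band spans the middle 90% of all genes tested, -0.64 to 0.57; the deadenylation, decapping and exosome genes lie inside it, and most targets and all immediate early genes lie below it.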

How the data were processed

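Messenger RNA of 3 Abcc4-/- and 3 WT samples was sequenced from both ends after strand-specific library preparation, per the labels' protocols. STAR 2.7 and RSEM 1.3.1 were used with mm10, per the submitters' processing notes. Which annotation release they used was not stated in the labels. The authors deposited expected counts per gene, not normalized, and TPM, scaled within each sample. The 92 spike-in entries held 0 counts and were left out. Groups came from the genotype labels and replicate numbers from the titles; the labels do not tie each library to its own mouse, and p-values cover only the spread among these libraries, which may be technical. Expected counts were rounded and tested over all genes with edgeR 4.0.16 (R 4.3.3; TMM, default filter, robust quasi-likelihood test, Benjamini-Hochberg). Each SE is the fold change over the square root of its F statistic. No library pair agreed within sampling noise.

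Alternatives used limma 3.58.1 (on log2 TPM with pseudocounts of 1 and 0.1, where changes of low genes are understated) and DESeq2 1.42.0. The 8 genes and all lists were chosen with earlier results of these data known. The rule for names took the 8 genes and their 3 nearest genes each. From a list with at most 5 calls it allowed every called member, otherwise the 3 with the smallest adjusted p in each direction, and from a list with 0 calls the gene with the smallest p. Not every gene it allowed is named, and markers of other cells are given as sums; other genes are said to be named after their values were seen. UTR motifs were searched on the sense strand, promoter motifs on both. Annotated genes on the opposite strand overlap 5 of the 8 genes, and the tables are marked as stranded. Btg3 also overlaps an annotated gene on its own strand (Gm49590), which strand does not resolve. Gene positions and 3′ UTRs came from GENCODE M21 (GRCm38), which matched all 8 identifiers, and promoters from RefSeq.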

Additional observations from a re-analysis of the deposited data

How the results depend on the processing

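All 8 genes kept their direction and their call in each of the 17 alternative fits. The count of all genes called was 2852, and 1760 to 2415 with 1 library left out (1821 without Abcc4-/- replicate 1 and 1760 without Abcc4-/- replicate 2). On log2(TPM + 1), 28.4% of calls were higher, against 49.8% in counts, and the median over genes was -0.06; with libraries centred on their median, an alternative chosen after seeing the data, it was 57.0%. Counts called in the other lists were small and moved. Deadenylation genes called were 2, 0 to 1 with 1 library left out and 0 on centred TPM. Decapping genes called were 1, 0 to 2 with 1 library left out, 3 with no filter, 0 with a CPM filter and 0 on thinned counts. Exosome genes called were 0, and 1 without WT replicate 3. Other stability regulators called were 5, 2 to 6 with 1 library left out, and 3 on log2(TPM + 1), on log2(TPM + 0.1) and on centred TPM. Genes for p38, MK2, 14-3-3 and PP2A called were 2, 0 to 2 with 1 library left out, and 1 on centred TPM. Targets called were 17, and 12 to 17 with 1 library left out. Dcp2 reversed on log2(TPM + 1) (-0.15), log2(TPM + 0.1) (-0.16) and centred TPM (-0.064). The causes of these moves were not tested. Correlations of deviations between same-numbered libraries were -0.05, -0.03 and -0.01, within the -0.06 to 0.085 of differently numbered libraries. They showed no pairing by replicate number, but 3 libraries a genotype cannot exclude it. With the number as a replicate block, 3157 genes were called, all 8 decay regulators among them, and 3 decapping genes. With 3 libraries a genotype, small differences may be missed, and depth was no limit for the 8 genes, whose lowest count was 512.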

Other observations

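The AU-rich nonamer TTATTTATT was also looked for in the longest annotated 3′ UTR of each tested gene, with the 8 genes included in the counts. Of 1043 genes that held it, 12.9% were called lower and 9.59% higher in Abcc4-/- (edgeR, adjusted p below 0.05). Among the 12213 genes without it, 8.77% were called lower and 9.55% higher. The median log2 fold change was -0.02 with the nonamer and 0.00 without it. Genes with it had longer 3′ UTRs, with a median of 2343 bases against 1056. Within each of 5 bands of 3′ UTR length, the share called lower was larger with the nonamer (11.1% to 22.2%) than without it (6.87% to 10.1%), where the smallest band held 56 genes with it. The share called higher was larger with the nonamer in 1 of the 5 bands. It was the band with the most such genes (360, median 3′ UTR 2796 bases), with 13.3% called higher against 11.9% without it. Among those 360 genes, fewer were called lower (11.1%) than higher. Of 84 genes with at least 3 copies, 21.4% were called lower and 10.7% higher. Their median log2 fold change was -0.015, and their 3′ UTRs, with a median of 2851 bases, were not compared at equal length. These shares are a description, and no test was run on them. Fos, Dusp1, Plk3 and Pim1 hold the nonamer, and Ier3, Il6 and Cdkn1a do not; of these, Fos, Dusp1, Ier3 and Il6 were named after their values were seen.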
